A study of Mus musculus with 3 samples.

Results

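The genes described here are 9 members of the ETS family of transcription factors: Ets1, Ets2, Fli1, Erg, Elf1, Elf2, Gabpa, Etv6 and Elk3. They were taken by symbol from an annotation of the mouse mm9 assembly that holds 22350 protein-coding genes on the chromosomes with regions, and each was examined over its gene body with 20 kb on either side, called its window. Resting natural killer cells (NKC) from the spleens of ICR mice were studied by chromatin immunoprecipitation and sequencing (ChIP-seq) in 3 samples. Of these, 1 was precipitated with an in-house polyclonal antibody to Runx3 and 1 with non-immune serum (NIS). The other was precipitated with an antibody to H3K4me1 (a single methyl group on lysine 4 of histone H3). No treatment or mutation is given for any sample, nor the age or sex of the mice. The labels give NKp46 as the marker for sorting and the methods of the study give DX5. Each antibody gave a single list of enriched regions, called against NIS, and a Runx3 region is called a peak below.

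ETS proteins share a winged helix-turn-helix domain that binds DNA around a GGAA core, and the bases on either side of the core differ between subfamilies. Several act early in blood cell development, and Ets1 is required for the development of NKC in mice. RUNX proteins bind a short TGYGGY sequence, where Y is C or T, and Runx1 and Ets1 are known to bind DNA cooperatively at some T cell receptor enhancers. Enhancers carry H3K4me1, and so do the sides of promoters in use.

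The lists hold 15524 Runx3 peaks and 49902 H3K4me1 regions on 20 chromosomes. They give coordinates without a score or read number, so the depth behind a region is unknown and no strength of binding can be compared. With 1 list per antibody there is no spread between replicates, no test was possible and every comparison below is a description. The 8 NK marker genes that were counted (Ncr1, Klrb1c, Klrk1, Itga2, Prf1, Gzmb, Eomes and Tbx21) all had both a Runx3 peak and H3K4me1 within 5 kb of the gene body, where 39.8% of protein-coding genes had a peak and 67.7% had H3K4me1. Of the 6 T cell markers 2 had a peak and 4 had H3K4me1, of the 6 B cell markers 3 and 5, and of the 6 myeloid markers 2 and 4, so the counts of these 3 lists were close to those shares. The part of other cell types in the regions at the ETS genes was not tested.

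All 9 genes had at least 1 Runx3 peak in the window, where 51.0% of protein-coding genes had one, and all 9 had H3K4me1, where 74.0% did. With only the peaks wider than the list median, 4 of the 9 genes (Ets1, Fli1, Elf1 and Etv6) had one, against 35.1%. The peaks were unevenly shared. Fli1 had 8 peaks, Ets1 7, Elf1 5, Elf2 and Etv6 3 each, and Ets2, Gabpa, Elk3 and Erg 1 each, 30 in all. Ets1, Fli1 and Elf1 therefore held 20 of the 30 peaks (66.7%), and these 3 genes had 5 or more peaks, as did 4.08% of protein-coding genes. The 4 genes with 1 peak were at the median of protein-coding genes, which is 1 peak.

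Windows differ in length, and a long gene has more room for peaks. The median window was 141.3 kb over the 9 genes and 55.4 kb over protein-coding genes. Per 100 kb of window, Fli1 had 5.03 peaks, Ets1 4.33 and Elf1 3.54, densities above those of 91.6%, 87.6% and 82.7% of protein-coding genes. Elf2 had 2.39, Ets2 1.7, Gabpa 1.45, Etv6 1.09, Elk3 0.964 and Erg 0.374. Etv6 and Erg have the longest windows, 274.5 and 267.4 kb, and their densities were above those of 54.9% and 49.7% of protein-coding genes. Summed over the 9 windows (1.36 Mb), the density was 2.2 peaks per 100 kb, against 1.29 summed over the windows of protein-coding genes and 0.588 over the 20 chromosomes. Without Ets1 and Fli1 it was 1.44.

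**Figure D1:**
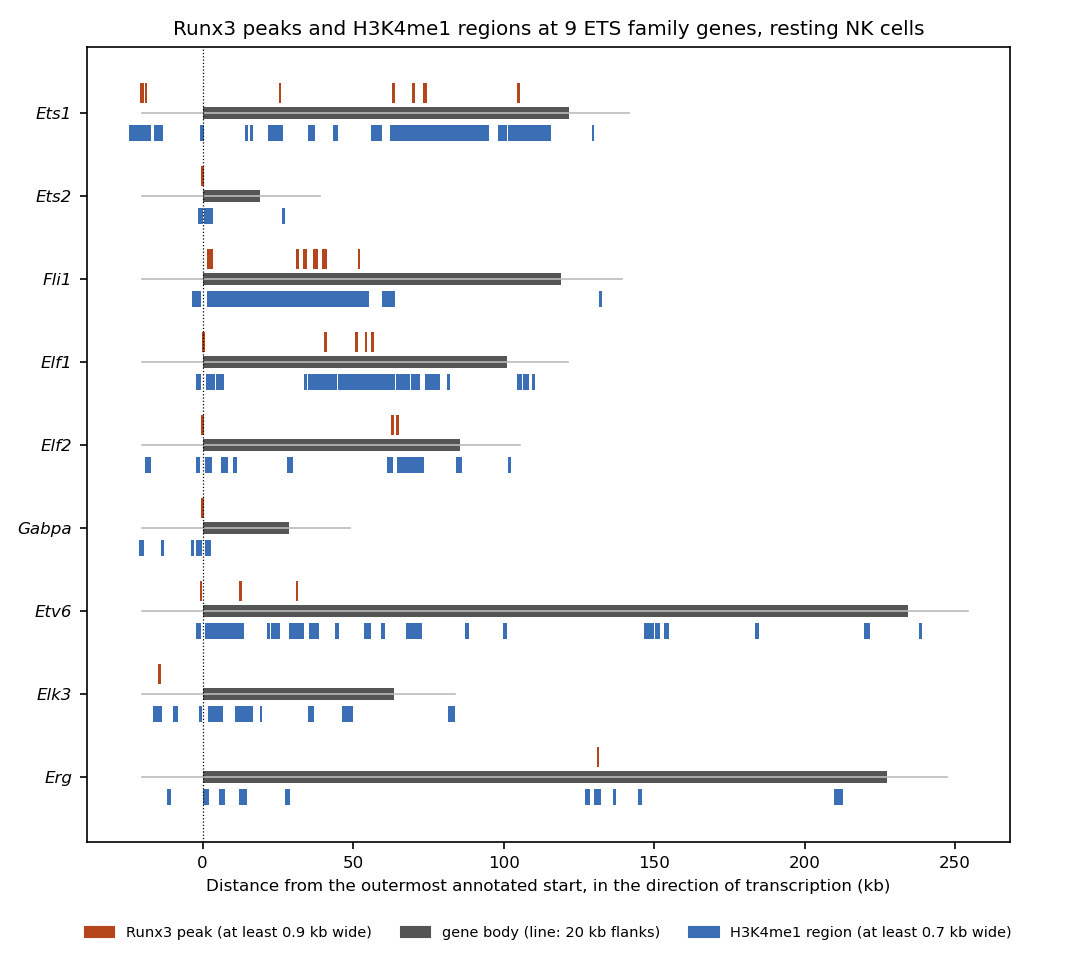
Runx3 peaks (upper blocks), gene body with 20 kb on either side (bar and line) and H3K4me1 regions (lower blocks) at the 9 genes, by distance in kb from the outermost annotated start in the direction of transcription. Peaks of Ets1, Fli1 and Elf1 lie mostly within wide H3K4me1 blocks inside the gene, while the single peaks of Ets2 and Gabpa lie at the start.

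H3K4me1 followed a similar order. It covered 45.4% of the Ets1 window, 39.4% at Elf1 and 39% at Fli1, above the coverage of 97.1%, 95.4% and 95.2% of protein-coding genes. Coverage was 24.4% at Elk3, 20.6% at Elf2 and 18.5% at Etv6, and 9.75% at Gabpa, 9.4% at Ets2 and 7.33% at Erg. The median over protein-coding genes was 7.38%, so the last of these lay at the median. Elk3 stood apart from this order, with 25.3 kb of H3K4me1 in 9 regions and 1 Runx3 peak. Over the 9 windows 23.9% was covered, against 9.63% over the windows of protein-coding genes and 4.83% of the chromosomes.

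Ets1 and Ets2 are closely related activators that respond to Ras and MAP kinase signalling. Ets1 (chr9:32443806-32565405, + strand) had 7 Runx3 peaks, and none of them lay at a start. Peaks of 1289 and 696 bp, at chr9:32422937-32424225 and chr9:32424687-32425382, lay 20.2 and 18.8 kb upstream of the gene. The midpoint of the first is just beyond the 20 kb limit, and only its inner part falls in the window. A peak in intron 2 lay 25.8 kb inside the gene. Then 3 peaks stood within 11.7 kb in intron 3, at 63.4, 70.1 and 74 kb from the outermost start, and the nearest of them was 3.62 kb downstream of an internal transcript start. The seventh, in intron 5, was 104.9 kb from the outermost start. All 7 peaks were wholly covered by H3K4me1. The 3 peaks of intron 3 shared an H3K4me1 region of 32.8 kb (chr9:32506068-32538863). Only 43 regions of the list (0.0862%) were wider, and 0.918% of all H3K4me1 regions held 3 or more Runx3 peaks. The widest Ets1 peak is the first upstream one, and its central 200 bp (chr9:32423482-32423681, + strand) hold a RUNX match, in capitals, near the right edge. For each gene the sequence shown is the centre of its widest peak whose centre is clear of exons.
Ets1 peak centre: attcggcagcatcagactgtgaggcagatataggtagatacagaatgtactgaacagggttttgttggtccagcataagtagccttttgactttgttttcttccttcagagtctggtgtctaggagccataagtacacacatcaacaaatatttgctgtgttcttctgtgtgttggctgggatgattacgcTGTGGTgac
The stretch chr9:32423653-32423743 of the same peak is the place where a RUNX and an ETS match (AGGAAGT, on the opposite strand) lie closest at Ets1, 38 bp apart. It was chosen after its matches were seen, and both are in capitals. This stretch and the peak centre above lie wholly in the outer part of the peak, beyond the 20 kb limit.
Ets1 paired matches: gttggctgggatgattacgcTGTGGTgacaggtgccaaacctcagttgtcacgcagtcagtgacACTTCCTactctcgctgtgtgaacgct

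Ets2 (chr16:95923682-95942658, + strand) had a single peak, 810 bp wide, at chr16:95923292-95924101. Its midpoint was 14 bp from the start, in a UTR exon, and H3K4me1 covered 84% of it. The widest H3K4me1 region of Ets2, 2.79 kb, held no Runx3 peak, and 25.3% of the list was wider. Ets1 and Ets2 thus differed in place as well as number, with 7 peaks away from starts at Ets1 and 1 peak at the start of Ets2.

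Fli1 and Erg belong to the ERG subfamily, as does Fev. Fli1 and Erg regulate haematopoietic stem cells and megakaryocytes, and Erg is also abundant in endothelium. Fli1 (chr9:32229793-32348974, - strand) had the most peaks, 8, and all lay in intron 1, between 1.95 and 52 kb from the start. The nearest to the start, chr9:32346469-32347578, is 1110 bp wide and was followed by a peak at 3 kb. Between 31.5 and 40.6 kb there were 5 peaks within 10.3 kb (chr9:32307557-32317892), and 18 bp separated the closest of them (589 and 1160 bp wide). The last peak was at 52 kb. All 8 overlapped the same H3K4me1 region, chr9:32293648-32347409, which is 53.8 kb wide, and the peak nearest the start ran past its end and was 84.8% covered. Only 9 regions of the list (0.018%) were wider, and 11 H3K4me1 regions in the whole list (0.022%) held 8 or more Runx3 peaks. The widest peak at any of the 9 genes was here, 1688 bp at chr9:32307557-32309244, and its central 200 bp (chr9:32308301-32308500, - strand) hold neither a RUNX nor an ETS match.
Fli1 peak centre: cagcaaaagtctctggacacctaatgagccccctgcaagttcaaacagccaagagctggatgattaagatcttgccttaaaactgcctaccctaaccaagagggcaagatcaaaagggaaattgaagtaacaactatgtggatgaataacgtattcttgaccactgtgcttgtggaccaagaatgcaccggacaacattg
The same peak held a RUNX and an ETS match 50 bp apart nearer its edge, at chr9:32307831-32307933 (- strand), which is shown with both in capitals. It and the next stretch were chosen after their matches were seen.
Fli1 paired matches: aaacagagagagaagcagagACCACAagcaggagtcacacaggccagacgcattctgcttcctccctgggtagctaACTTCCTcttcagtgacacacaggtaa
The peak farthest from the start held such matches 35 bp apart, at chr9:32297289-32297376 (- strand), with the ETS match first.
Fli1 paired matches: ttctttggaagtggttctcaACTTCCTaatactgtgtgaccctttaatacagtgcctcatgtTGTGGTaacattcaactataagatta

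Erg (chr16:95580776-95808200, - strand) had 1 peak of 656 bp, chr16:95676466-95677121, in intron 3. It lay 131.4 kb from the outermost start and 4.12 kb downstream of an internal start, and H3K4me1 covered all of it. The widest H3K4me1 region of Erg, 2.95 kb at chr16:95595393-95598339, held no peak. Of the 10 H3K4me1 regions in the Erg window 1 held a peak. The central 200 bp of the Erg peak (chr16:95676694-95676893, - strand) hold 2 RUNX matches close together, in capitals, and no ETS match.
Erg peak centre: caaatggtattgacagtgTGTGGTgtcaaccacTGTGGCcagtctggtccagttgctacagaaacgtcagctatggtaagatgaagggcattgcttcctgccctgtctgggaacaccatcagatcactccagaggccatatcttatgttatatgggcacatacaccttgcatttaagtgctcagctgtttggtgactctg

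**Figure D2:**
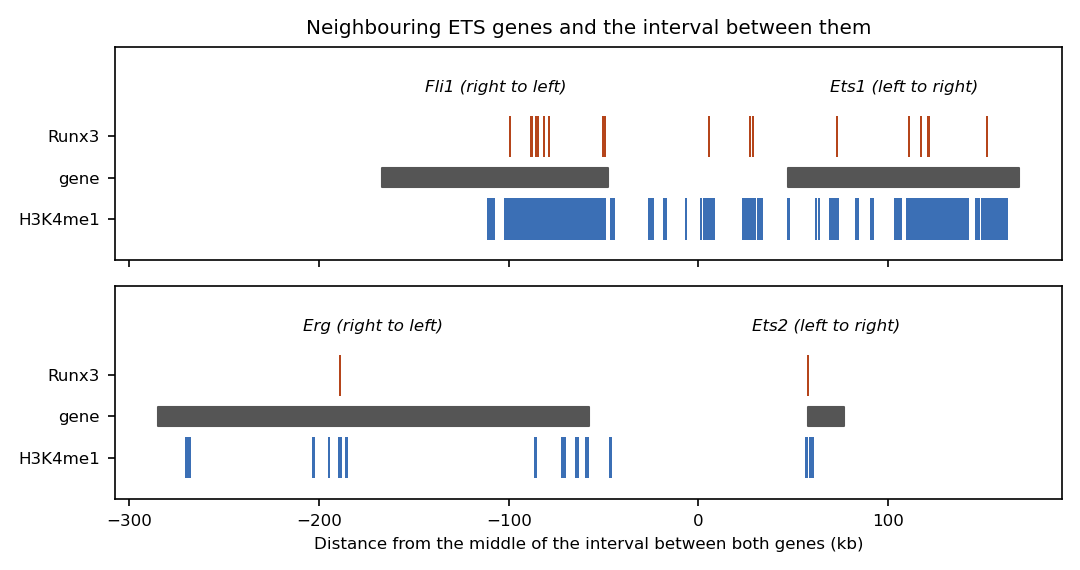
Runx3 peaks, gene bodies and H3K4me1 regions over Fli1 with Ets1 (upper panel) and Erg with Ets2 (lower panel), by distance in kb from the middle of the interval between both genes; narrow blocks are drawn wider than to scale so that they can be seen. The upper panel shows 16 peaks and the lower panel 2.

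Fli1 and Ets1 are neighbours on chromosome 9 and are transcribed away from each other, as are Erg and Ets2 on chromosome 16. No annotated gene lies in either interval. The Fli1 to Ets1 interval (chr9:32348975-32443805, 94.8 kb) held 3 Runx3 peaks, all in H3K4me1, and 9 H3K4me1 regions that covered 30.5% of it. These include both upstream peaks of Ets1 and a peak of 790 bp at chr9:32401607-32402396, outside both windows, 53 kb upstream of Fli1 and 41.8 kb upstream of Ets1. The Erg to Ets2 interval (chr16:95808201-95923681, 115.5 kb) held 1 peak, the one at the Ets2 start, and 2 H3K4me1 regions that covered 2.58%. Over genes and interval together there were 16 peaks in 335.6 kb for Fli1 and Ets1 and 2 peaks in 361.9 kb for Erg and Ets2.

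Elf1 and Elf2 belong to the ELF subfamily, and Elf1 is prominent in lymphoid cells. Elf1 (chr14:79881001-79982283, + strand) had 5 peaks. The first, 1113 bp at chr14:79880717-79881829, has its midpoint 272 bp from the Elf1 start and 198 bp from the start of Wbp4, which lies back to back with Elf1, so the peak cannot be assigned to either gene. No H3K4me1 region touched it. The other 4 peaks lay in introns 1 and 2 at 40.8, 51.1, 54.3 and 56.5 kb from the outermost start, and H3K4me1 covered all of each. The last 3, within 6.19 kb, shared the widest H3K4me1 region of the gene (14 kb, chr14:79926120-79940161), and 0.854% of the list was wider. When H3K4me1 regions within 1 kb of each other were joined, the block grew to 38.8 kb with all 4 intronic peaks, whereas the widest blocks of Ets1 and Fli1 kept 32.8 and 53.8 kb. The central 200 bp of the widest intronic peak (chr14:79937400-79937599, + strand) begin with 2 RUNX matches, in capitals.
Elf1 peak centre: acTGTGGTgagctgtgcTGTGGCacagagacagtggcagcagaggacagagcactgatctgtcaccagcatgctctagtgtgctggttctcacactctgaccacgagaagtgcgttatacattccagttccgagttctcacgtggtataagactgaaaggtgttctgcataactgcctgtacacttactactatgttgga

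Elf2 (chr3:51059153-51144580, - strand) had 3 peaks. The first, 626 bp at chr3:51144332-51144957, lay 64 bp from the outermost start and touched no H3K4me1 region. The second, 774 bp at chr3:51081028-51081801, lay 22 bp from an internal Elf2 start, 63.2 kb from the outermost start, and less than 1 kb from the start of 4930577N17Rik. H3K4me1 covered 49.5% of it. The third, 666 bp at chr3:51079604-51080269 in intron 4, was 78.5% covered and overlapped the widest H3K4me1 region of Elf2, 9.24 kb wide. Elf2 therefore had a peak at its outermost start and at an internal start. The centre of the third (chr3:51079837-51080036, - strand) is shown with its RUNX matches, TGTGGC and TGCGGT, in capitals.
Elf2 peak centre: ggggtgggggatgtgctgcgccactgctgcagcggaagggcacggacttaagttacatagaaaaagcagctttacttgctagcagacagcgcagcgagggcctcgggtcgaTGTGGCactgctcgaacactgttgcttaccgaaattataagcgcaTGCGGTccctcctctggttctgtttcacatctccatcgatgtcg

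Gabpa encodes the DNA-binding alpha subunit of GABP, which regulates many housekeeping and mitochondrial genes together with a beta subunit. Gabpa (chr16:84835170-84864024, + strand) had 1 peak of 678 bp, chr16:84834899-84835576. Its midpoint was 66 bp from the nearest Gabpa start and 13 bp from a start of Atp5j, which encodes a mitochondrial ATP synthase subunit and is transcribed the other way, so the peak cannot be assigned to either gene. H3K4me1 covered 13.1% of it. This was 1 of 2 peaks among the 30 without a RUNX match, and it held 2 ETS matches. The sites, each with 10 bases on either side, are shown with the match in capitals, at chr16:84835093-84835119 (CGGAAGT on the opposite strand) and chr16:84835247-84835273 (AGGAAGT), both given on the + strand.
Gabpa ETS match 1: ccaccgttctACTTCCGgccctggctc
Gabpa ETS match 2: aaacaggaggAGGAAGTggagggtaag
The genes of the beta subunits, Gabpb1 and Gabpb2, each had 1 peak as well, in both cases at a start.

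Etv6 encodes a repressor that multimerizes through its pointed domain. Etv6 (chr6:133985718-134220176, + strand) had 3 peaks in a window with 20 H3K4me1 regions, the most of the 9 windows. The first, 885 bp at chr6:133984797-133985681, was centred 479 bp upstream of the start and 41.1% covered by H3K4me1. The others, 827 bp at chr6:133997791-133998617 and 799 bp at chr6:134016703-134017501, lay in introns 1 and 2, 12.2 and 31.1 kb from the nearest start, and were wholly covered. The rest of the gene, beyond these peaks, held H3K4me1 regions and no Runx3 peak. The centre of the first peak (chr6:133985140-133985339, + strand), has a GC content of 71% and holds the RUNX match TGCGGC, in capitals.
Etv6 peak centre: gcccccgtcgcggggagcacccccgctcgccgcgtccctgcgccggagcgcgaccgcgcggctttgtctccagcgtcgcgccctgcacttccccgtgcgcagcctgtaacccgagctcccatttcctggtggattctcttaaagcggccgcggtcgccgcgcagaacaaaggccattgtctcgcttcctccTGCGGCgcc
In the intron 1 peak the RUNX and ETS matches were 10 bp apart (chr6:133998496-133998558, + strand), the closest such pair at the 9 genes. This stretch was chosen after its matches were seen.
Etv6 paired matches: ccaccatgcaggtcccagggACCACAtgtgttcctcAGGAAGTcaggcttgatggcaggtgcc

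Elk3 encodes a ternary complex factor that binds DNA with serum response factor. Elk3 (chr10:92710159-92773880, - strand) had 1 peak of 766 bp, chr10:92787905-92788670, which lay 14407 bp upstream of the start and was wholly covered by H3K4me1. No Runx3 peak touched the gene body, which held several H3K4me1 regions, the widest of 5.91 kb (chr10:92757115-92763024). The centre of the peak (chr10:92788188-92788387, - strand) is 1 of 3 peak centres with an ETS match, shown in capitals, and it has no RUNX match.
Elk3 peak centre: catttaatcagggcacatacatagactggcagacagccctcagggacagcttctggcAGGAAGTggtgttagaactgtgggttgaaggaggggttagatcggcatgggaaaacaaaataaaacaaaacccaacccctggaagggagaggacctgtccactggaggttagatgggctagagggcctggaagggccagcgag

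The peaks separate by distance from the start of their own gene. A Runx3 peak with its midpoint less than 1 kb from an annotated start was found at 5 genes (Ets2, Elf1, Elf2, Gabpa and Etv6), where 27.2% of protein-coding genes had one. Because Elf2 has 2, there were 6 such peaks. Those of Elf1 and Gabpa also lay at the starts of Wbp4 and Atp5j and cannot be assigned to either gene. The share over protein-coding genes counts peaks at shared starts too. A further 5 peaks lay 1 to 5 kb from a start and 19 lay farther away. Measured to the start of any gene the split was the same, 20% under 1 kb, 16.7% at 1 to 5 kb and 63.3% beyond, against 39.1%, 15.8% and 45.1% of all Runx3 peaks. Of the 30 peaks, 25 lay inside the gene body, 5 upstream and 0 downstream, counted by midpoint, and 25 touched no exon of the gene. The median width was 770 bp (range 589 to 1688 bp), against 825 bp in the list (interquartile range 696 to 967 bp). The 8 widest of them were 3 of Ets1, 4 of Fli1 and the start peak of Elf1, each over 1 kb wide. These are 26.7% of the 30 peaks, against 21.3% of the list, so the share of wide peaks was near that of all peaks.

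H3K4me1 differed along with distance. Of the 30 peaks, 28 overlapped an H3K4me1 region by at least 1 bp (93.3%, 95% Wilson interval 78.7 to 98.2%, which covers counting error over peaks only), and so did 95.7% of the whole list. The 2 that did not were the peaks at the outermost starts of Elf1 and Elf2. This interval and those below take peaks as independent, although all 8 Fli1 peaks overlapped the same H3K4me1 region. The midpoint lay inside H3K4me1 in all 19 peaks more than 5 kb from a start and in all 5 at 1 to 5 kb, but in 1 of 6 at a start, that of Ets2. In the whole list, with starts of any gene, the shares were 94.9%, 94.5% and 66.2%. Conversely, 16 of the 89 H3K4me1 regions in the windows held a Runx3 peak (18%), against 28.6% of the list. Without Ets1 and Fli1 it was 11 of 71 regions.

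The outermost starts differed in their H3K4me1. At 6 genes (Fli1, Elf1, Elf2, Gabpa, Etv6 and Elk3) the start lay in a gap between regions, with H3K4me1 within 2 kb on both sides, where 16.0% of protein-coding genes had such a gap. This gap was described after the regions had been seen. The gap was 2147 bp at Fli1, 2039 bp at Elk3, 1548 bp at Elf2, 1421 bp at Elf1, 1368 bp at Etv6 and 1058 bp at Gabpa. A Runx3 peak lay at the start in 4 of these 6 genes, at Elf1, Elf2, Gabpa and Etv6, and 63.7% of protein-coding genes with such a gap had a start peak. The peaks of Elf1 and Gabpa also lie at the start of a neighbouring gene. At Fli1 and Elk3 there was no start peak. Fli1 had its nearest peak at the inner edge of the gap, and Elk3 had its only one far upstream. The starts of Ets1 and Ets2 lay inside H3K4me1, as did 34.5% of protein-coding genes, of which 40.9% had a start peak. Ets2 had a peak there and Ets1 had none. Erg had H3K4me1 175 bp downstream of its start, and the nearest region upstream was 10445 bp away.

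**Figure D3:**
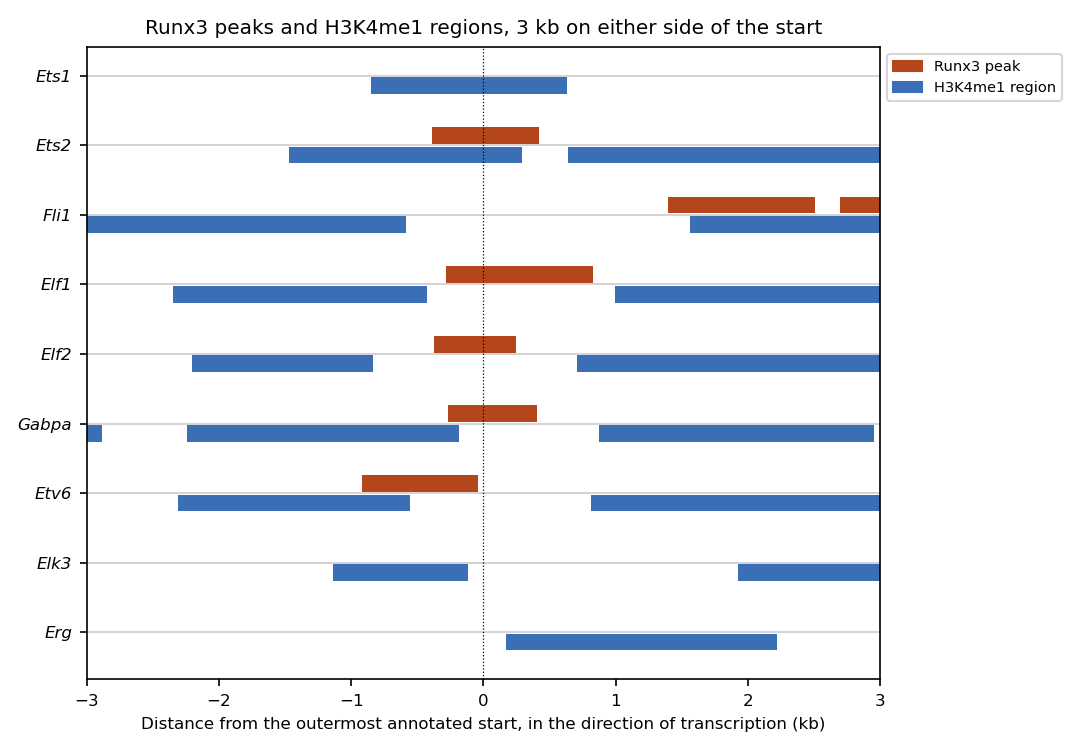
Runx3 peaks (upper blocks) and H3K4me1 regions (lower blocks) within 3 kb of the outermost annotated start of each gene, by distance in kb in the direction of transcription (dotted line: start). The peaks of Elf1 and Elf2 lie between flanking H3K4me1 regions and touch none, and those of Gabpa and Etv6 touch the upstream region.

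Both strands were searched for the RUNX sequence TGTGGT and its variant forms, which are TGTGGC as well as TGCGGT and also TGCGGC. The ETS sequences searched were AGGAAGT and, with another first base, CGGAAGT. A RUNX match occurred in 28 of the 30 peaks (93.3%, interval 78.7 to 98.2%), the same share as in the whole Runx3 list (93.3%). The peaks without one were those of Gabpa and the fourth of Elf1, in intron 1. Ets1 held 23 RUNX matches in its 7 peaks, of which 7 lay in the 1285 bp peak of intron 3 (chr9:32517169-32518453). Fli1 held 19 matches, with 1 to 3 in each peak. Elf2 and Etv6 held 9 each, Elf1 8, Erg 4, Elk3 2 and Ets2 1.

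An ETS match occurred in 11 of the 30 peaks (36.7%, interval 21.9 to 54.5%), against 41.8% of all Runx3 peaks. It was found in 3 of 8 Fli1 peaks, 2 of 3 Elf2 peaks, 1 of 7 Ets1 peaks, 1 of 5 Elf1 peaks, 1 of 3 Etv6 peaks and in the single peaks of Ets2, Gabpa and Elk3. The Erg peak had none. A RUNX and an ETS match that overlapped or lay at most 50 bp apart were found in 5 peaks (16.7%, against 17.3% of all peaks), 2 at Fli1 and 1 each at Ets1, Elf2 and Etv6. Whole peaks were searched, and the closest Ets1 pair lay in the part of its peak outside the window. The GGAA core alone occurred in all 30 peaks and in 99.8% of the list, so it does not separate peaks. Matches are letters in a window and do not show that a factor bound there.

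The RUNX variants were unevenly placed in these few peaks. Among the 6 peaks at starts, TGTGGT occurred in 1, TGTGGC in 1, TGCGGT in 3 and TGCGGC in 4. Among the 19 peaks more than 5 kb away, TGTGGT occurred in 14, TGTGGC in 10, TGCGGT in 4 and TGCGGC in 2. The whole list was uneven in the same way, so this is not particular to the 9 genes. Of all peaks under 1 kb from a start of any gene, 45.6% held TGTGGT and 48.3% TGCGGC, and of those more than 5 kb away 78.8% and 11.3%. For TGTGGC the shares were 48.3% and 58.4%, and for TGCGGT 36.5% and 16.2%. The GC content of the 30 peaks moved with this, with a median of 64% (61.5 to 76.5%) at starts and 46.1% (39.4 to 52.8%) away from them, and its part in the difference was not tested.

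In the central 200 bp, 21 of the 30 peaks had a RUNX match (70%), against 69.2% of all Runx3 peaks and 35.3% of the 35626 H3K4me1 regions without a Runx3 peak. An ETS match occurred in 3 centres (10%), against 20.1% of all Runx3 peaks and 10.3% of those H3K4me1 regions. A pair occurred in 1 centre (3.33%), against 9.18% and 2.61%. Fewer of the 30 peaks than of all Runx3 peaks lay under 1 kb from a start (20% against 39.1%). The part of this in the ETS and pair shares, here and in whole peaks, was not tested.

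**Figure D4:**
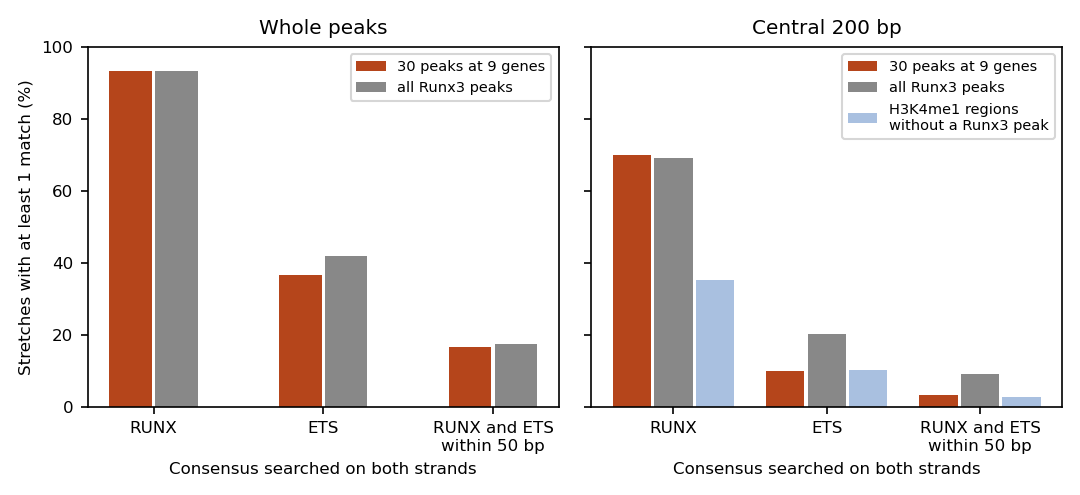
Share (%) of whole Runx3 peaks (left) and of central 200 bp (right) with at least 1 RUNX match, ETS match, or both within 50 bp, in the 30 peaks at the 9 genes, in all Runx3 peaks and, at right, in H3K4me1 regions without a Runx3 peak. The RUNX bars of the 30 peaks and of all peaks are level at 93.3% in whole peaks and near 70% in centres.

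The other 17 ETS family genes, taken by symbol from the same annotation, had fewer peaks in number and a similar density. A Runx3 peak was found in the window of 9 of the 17, 21 peaks in all, and H3K4me1 in 14. The median was 1 peak, against 3 over the 9 genes above, and 6.19% of the window covered, against 20.6%. Their windows are shorter, and the median density was 1.75 peaks per 100 kb, against 1.7. Elf4, which is related to Elf1, had 5 peaks with 38.7% of its window covered. Erf had 4 peaks with 38.1% covered. The densities of Erf, Etv3 and Elf4 were 8.3, 5.48 and 5.43 per 100 kb, each above that of Fli1 (5.03). Etv3 and Sfpi1 had 3 peaks each, and Sfpi1 is the symbol in this annotation for the gene of PU.1, a regulator of myeloid and B cells. No Runx3 peak lay in the windows of Elf5, Ehf, Etv1, Etv4, Etv5, Fev, Spic and Spdef. Of these, Elf5, Ehf and Spic also had no H3K4me1. A start peak, counted also where a neighbouring gene starts, was found at 3 of the 17 genes, Elk4, Etv3 and Sfpi1, and at 5 of the 9.

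**Figure D5:**
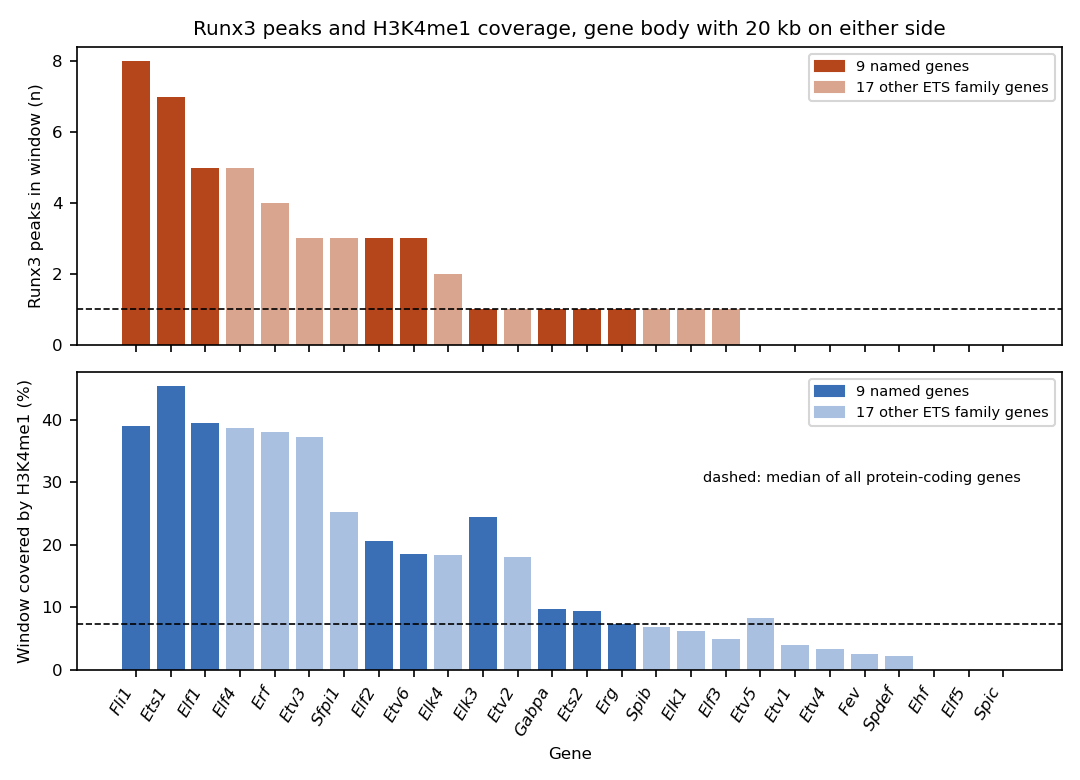
Runx3 peaks per window (upper panel, n) and share of the window covered by H3K4me1 (lower panel, %) for the 9 genes (dark bars) and the other 17 ETS family genes (light bars), where the window is the gene body with 20 kb on either side and dashed lines give the median of protein-coding genes. Fli1 and Ets1 have the most peaks, and 8 of the light bars are at 0 in the upper panel.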

How the data were processed

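The 3 samples are 1 Runx3, 1 H3K4me1 and 1 NIS immunoprecipitation from splenic NK cells, fixed in formaldehyde (1%) and sheared to about 300 bp, per the labels. The authors aligned 40 bp reads to mm9 with ELAND (the submitters' processing notes name CASAVA 1.7), kept unique alignments, joined the reads of their repeats and called regions with MACS against NIS, so replicates cannot be compared. The deposited files are 2 lists of coordinates, with no score, count or depth, and the NIS library was used only through these calls. The labels call each sample a first experiment, and which reads entered the lists cannot be read from them.

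Starts were made 1-based. Genes and transcript starts came from GENCODE vM1 and sequences from the genome of the same build (NCBIM37). A promoter table of another build was not used. Printed sequences follow the direction of the gene. Overlap needed 1 bp. Python 3.11.15, numpy 2.4.6, scipy 1.17.1 and matplotlib 3.10.9 were used, and counting was tested on simulated data. A region list holds no spread, so no test was run.

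The 9 genes, the family list and the searched sequences were chosen with earlier results of these data known. The rule named all 9 genes, other family genes without a peak and the 3 with most (with ties), and neighbours whose start is under 1 kb from a peak. It named for each gene the peak nearest a start, the widest peak and the widest H3K4me1 region, and the centre of the widest peak clear of exons as the sequence. Centres at Ets2 and Gabpa touched exons.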

Additional observations from a re-analysis of the deposited data

How the results depend on the processing

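Of 29 alternatives over 7 results, 22 stayed within 1.5 times the value given or, for shares, within its interval, and 7 moved. With peaks wider than the list median alone, the 9 windows held 12 Runx3 peaks in place of 30, at 4 genes in place of 9, against 35.1% of protein-coding genes. With wide H3K4me1 regions alone they held 51 in place of 89. Counting starts within 5 kb gave a start peak at 8 genes in place of 5, against 32.9% of protein-coding genes. In the central 200 bp the RUNX share was 70% and the ETS share 10%, and the GGAA core gave 100%. Each of these settings narrows or widens what is counted by construction. Some that stayed could not have moved the count of genes with a peak. A flank of 50 kb can only keep all 9, and a background of all annotated genes leaves that count unchanged. Without flanks 8 genes had a peak, against 33.6% of protein-coding genes, and the gene lost was Elk3. Flanks of 50 kb on either side gave 35 peaks, and joining peaks within 1 kb gave 26. The share in H3K4me1 ranged from 83.3% to 92.6%. Depth and calling thresholds could not be varied. No paired analysis was possible because each antibody has 1 list and no test was run.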
